A study of Mus musculus with 16 samples.

Results

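The genes described here encode the subunits and close partners of receptor complexes in mouse macrophages. They are the genes that the authors' enrichment table lists for the Gene Ontology cellular component "receptor complex", less 10 genes named in the rule, 7 of which were in that row. This leaves 62 genes of the 69 in the row, out of 3071 genes in the deposited comparison and 17130 genes that the authors tested. The row itself drew on genes with an adjusted p under 0.05 in the authors' comparison of beta-glucan with control, so the genes were chosen by that adjusted p, and every fold change and p below is a description that supports nothing further. In the authors' deposited table the row held 69 of 276 annotated genes (25.0%), against 17.3% of all 14706 background genes, with an adjusted p of 0.0395.

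A receptor complex is a set of proteins that binds a signal at the cell surface or inside the cell and passes it on. Cytokine receptors pair a ligand-binding chain with a signalling chain, integrins pair 1 alpha with 1 beta subunit, and TGF-beta family ligands join type I and type II kinases. Lipoprotein receptors of the LDL receptor family take up ligands by endocytosis, and some of them also serve Wnt signalling. Macrophages use these receptors to sense microbes, to attach to matrix and other cells, and to take up dying cells and lipoproteins.

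The cells were macrophages grown in culture from the bone marrow of aged mice of the inbred C57BL/6 strain, and the labels give no age in months or weeks. Both groups were grown for 7 days with M-CSF at 10 ng/mL, the growth factor that drives macrophage formation. Cells of 8 libraries then received beta-glucan, a cell wall polysaccharide of the yeast C. albicans, at 10 µg/mL for 24 hours, and cells of 8 control libraries received PBS. Both rested for 7 days before RNA was taken. The design asks how trained immunity, a lasting change of innate cells after a first stimulus, alters transcription in cells of aged mice. Whether each library is a separate mouse or culture is not labelled, and errors and p-values cover the spread between libraries, which may be technical.

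Effective library sizes, the deposited size factors times 17937135, ran from 15492864 to 20738976 and are a scaling, not a total of reads. The tabled genes took 4382665 to 5600727 reads per library. Of 10 macrophage markers 5 had values here (Adgre1, Mertk, Cd14, Itgam and Cx3cr1), and their summed normalized count was 33706 to 39941 in beta-glucan and 39440 to 62098 in control libraries. Cd14 was higher after beta-glucan and the others were lower on average, so the sum does not describe each marker. Among markers of other cell types, values existed for F13a1 of monocytes, Cd79b of B cells and Kdr of endothelial cells. No listed marker of neutrophils, dendritic cells, T cells, NK cells, mast cells, erythroid cells, megakaryocytes, stromal cells or osteoclasts was among the tabled genes, and their values are not analysed here. These lists held 3 to 7 genes per cell type, and other genes typical of these cells were not looked for. Libraries did not stand equally far apart. Controls 12 and 13 lay inside the range of the 8 beta-glucan libraries for 36 (58.1%) and 31 (50%) of the 62 genes, while the other 6 controls did so for 6 to 18 genes (9.68% to 29.0%). Over all tabled genes the shares were similar, at 53.1% and 55.7% for controls 12 and 13 and 10.6% to 34.5% for the others. Controls 2 and 3 lay at the opposite end. Calls are therefore also given without controls 12 and 13 and without controls 2 and 3. Controls 12 and 13 were singled out by these same values, so larger differences and more calls without them were likely and test no gene.

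Most receptor complex genes were lower after beta-glucan. Of the 62 genes 49 were lower and 13 higher (79.0% lower), against 1992 lower and 1079 higher of all tabled genes (64.9% lower). For all 69 genes of the row, before those named in the rule were left out, the authors counted 52 lower and 17 higher. The median log2 fold change was -0.63 for the receptor genes and -0.47 for all tabled genes, and the median size without sign was 0.73 and 0.57. In the authors' test 11.6% of all 17130 genes were lower, 6.3% were higher and 17.9% passed in either direction, and the rule took the 62 genes from these. Because RNA came from whole cultures, fewer cells that carry a receptor and less of its RNA per cell cannot be told apart. The plot of fold changes by receptor class shows that the integrin, TGF-beta superfamily and lipoprotein classes hold no gene that was higher. These classes hold only 6, 3 and 3 genes, and 64.9% of all tabled genes were lower. The absence of higher genes is therefore not read as a trait of these classes.

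**Figure D1:**
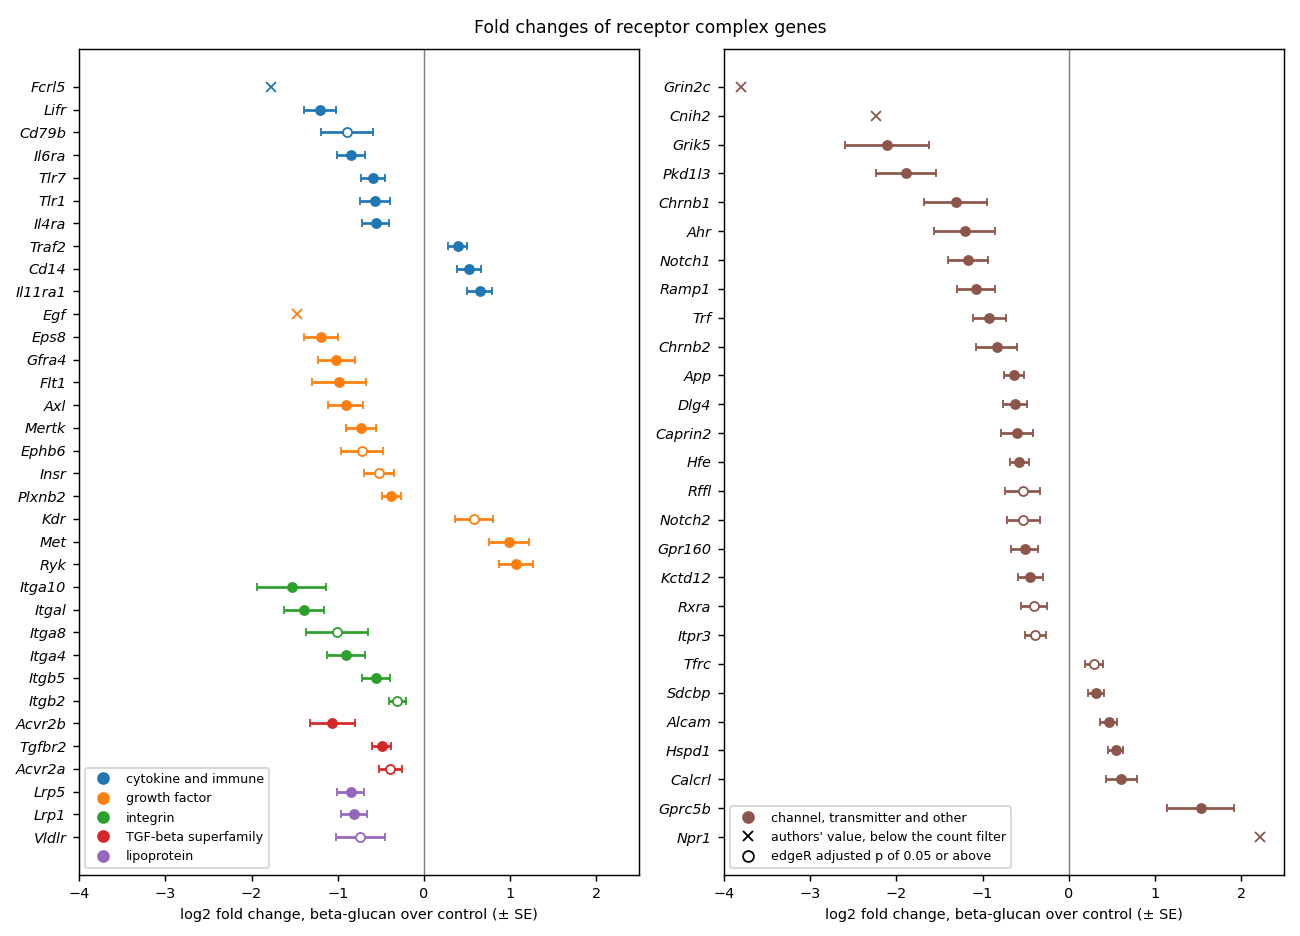
Log2 fold change, beta-glucan over control (x axis, edgeR estimate ± SE, 8 libraries per group), of the receptor complex genes described (y axis), coloured by class; crosses are the authors' values for the 5 genes below the filter on low counts and open circles have an edgeR adjusted p of 0.05 or above. Points left of 0 are lower after beta-glucan, as are all 6 integrin, 3 TGF-beta superfamily and 3 lipoprotein receptor genes.

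With edgeR's quasi-likelihood test, adjusted over all 17130 genes, 57 of the 62 genes passed the filter on low counts. It called 34 lower and 10 higher, and did not call 13. Among the 2738 tabled genes past that filter 42.8% were called lower and 25.9% higher, for 68.7% in either direction. With TMM scaling computed from the tabled genes, which moved the median log2 fold change of all genes by 0.22, the calls were 17 lower and 12 higher. Of all tabled genes 15.7% were then called lower and 38.8% higher. TMM takes most genes as unchanged, which these tabled genes, all chosen by the authors' adjusted p, do not meet. Calls lost or gained under it are therefore no test of a gene. No receptor gene changed its direction under that scaling, whose shift was smaller than the log2 fold change of any lower gene (-0.31 for Itgb2). Leaving out control 2 left 22 lower calls, and leaving out beta-glucan 7 left 6 higher calls. The calls of 16 genes were lost in at least 1 of the 16 fits that left out 1 library. Among them Chrnb1 kept its call in 14 fits, Cd14 in 13, Traf2 in 11, Il4ra, Calcrl, Ahr and Chrnb2 in 8 and Itgb5 in 7. Fewer fits kept the calls of Gpr160 (6), Tlr1 (5), Flt1, Sdcbp, Kctd12 and Caprin2 (4 each) and Plxnb2 (3). Without controls 12 and 13 there were 40 lower and 10 higher calls, against 51.7% and 31.3% of all tabled genes, and Tlr1 (adjusted p 0.0999) and Caprin2 (0.0683) lost theirs.

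Without controls 2 and 3 edgeR made 15 lower and 4 higher calls, against 16.2% and 6.70% of all tabled genes. The 4 higher calls were Il11ra1, Ryk, Hspd1 and Alcam. The 15 lower calls were Lifr, Il6ra, Eps8, Gfra4, Itgal, Tgfbr2, Lrp5, Lrp1, Pkd1l3, Notch1, App, Hfe, Trf, Ramp1 and Dlg4. The other genes called with all libraries lost their calls in this fit, and most are given with both values below. Among those described more briefly, the adjusted p without controls 2 and 3 was 0.0860 for Cd14, 0.151 for Il4ra, 0.131 for Traf2 and 0.0836 for Tlr1. By the same fit it was 0.158 for Plxnb2, 0.0681 for Chrnb2, 0.0977 for Chrnb1, 0.210 for Caprin2, 0.228 for Gpr160, 0.145 for Sdcbp and 0.293 for Kctd12.

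For 6 of the 62 genes (Lifr, Eps8, Ryk, Hspd1, Pkd1l3 and Hfe) no beta-glucan library overlapped a control library, and 7.52% of all tabled genes had this property. Without controls 12 and 13 the number was 31 genes, against 38.7% of all tabled genes, and without controls 2 and 3 it was 6, against 8.3%. The mean over the 49 lower genes of each library's centred log2 value ran from -0.57 to -0.24 in beta-glucan libraries. It was -0.09 in control 12, 0.11 in control 13 and 0.35 to 0.84 in the other 6 controls. The plot of library means places all 8 beta-glucan libraries apart from all 8 controls, with controls 12 and 13 nearest to them, a separation that the choice of genes makes likely.

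**Figure D2:**
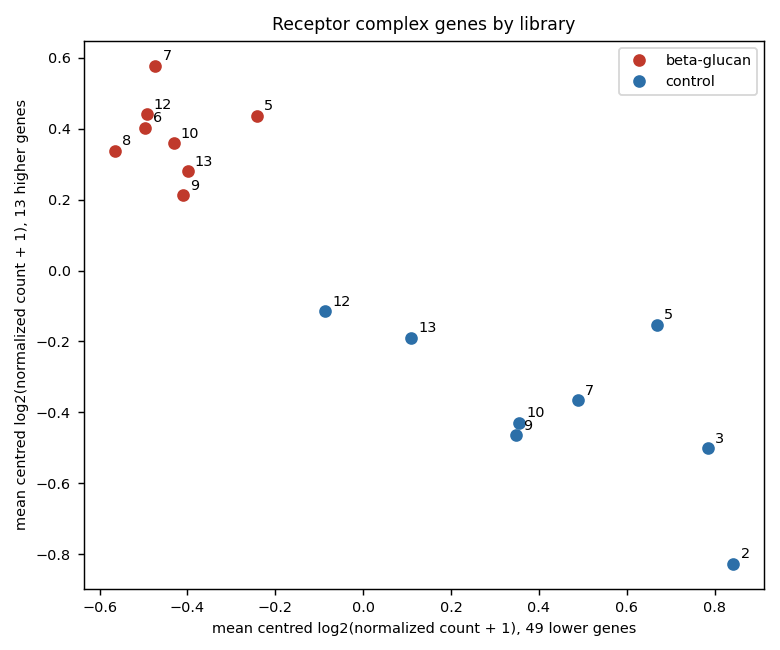
Each point is 1 library, numbered as in the labels. The x axis is the mean of the 49 lower genes and the y axis the mean of the 13 higher genes, both as log2(normalized count + 1) centred per gene over the 16 libraries. Controls 12 and 13 lie between the beta-glucan libraries and the other 6 controls.

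Among 10 cytokine and immune receptor genes 7 were lower and 3 higher, and edgeR called 5 lower and 3 higher. Among all tabled genes past the filter edgeR called 42.8% lower and 25.9% higher, to be set beside each class count below. Lifr, the receptor chain for leukaemia inhibitory factor (chr15:7090614-7197489, plus strand, mm10), had normalized counts of 49.8 to 89.9 (median 66.6) in beta-glucan libraries, against 94.1 to 227 (median 159) in controls. Every beta-glucan library lay below every control, with a log2 fold change of -1.21 ± 0.19 (SE). Il6ra, the ligand-binding chain for interleukin 6 (chr3:89864059-89913196, minus strand), had 1384 to 1907 (median 1612) in beta-glucan libraries, against 1488 to 4139 (median 2930.0) in controls. Its groups overlapped through control 12, at 1488, while control 13, at 1972, lay just above the beta-glucan libraries. The log2 fold change was -0.85 ± 0.16 (SE), or -1.03 without these 2 controls. Il4ra, a chain shared by the receptors for interleukins 4 and 13, averaged 3872 ± 698 in beta-glucan and 5714 ± 1499 in control libraries (SD, n = 8 each, as for all such means below).

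Il11ra1, the ligand-binding chain for interleukin 11 (chr4:41699989-41769474, plus strand), went the other way. Its normalized counts were 1138 to 1902 (median 1446) in beta-glucan libraries, against 678 to 1363 (median 809) in controls, a log2 fold change of 0.65 ± 0.15 (SE). Controls 12 and 13, at 1363 and 1220, were the highest controls, and the other 6 were at 678 to 855. The mouse genome holds near-identical copies of Il11ra1, so its count is uncertain to the extent that the counting dropped or split shared reads.

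The microbe sensors also went both ways. Tlr7, which senses single-stranded RNA in endosomes (chrX:167304929-167330558, minus strand), had 1682 to 2718 (median 2186) normalized counts in beta-glucan libraries, against 1898 to 4379 (median 3502) in controls, with a log2 fold change of -0.59 ± 0.14 (SE). The groups overlapped through control 12, at 1898. Tlr7 was not called without controls 2 and 3 (log2 fold change -0.50, edgeR adjusted p 0.0561). Tlr1, a sensor of lipopeptides, averaged 415 ± 150.1 and 616 ± 109.7 in beta-glucan and control libraries, and beta-glucan 12 and 13, at 567 and 727, lay inside the control range. Cd14, the co-receptor for lipopolysaccharide, averaged 7844 ± 1001 in beta-glucan and 5456 ± 1536 in control libraries, and controls 12 and 13 were again the highest controls. Traf2, an adaptor of TNF receptors, averaged 445 ± 65.3 and 339 ± 44.7 in the same order. Cd79b, a chain of the B cell antigen receptor and the 1 tabled marker of 4 for B cells, had only 15.1 ± 6.72 and 28.1 ± 8.71, and edgeR did not call it. Fcrl5, an Fc receptor-like gene, was below the filter on low counts, at 2.47 ± 2.22 and 8.50 ± 5.09.

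Set against the wider family, 12 of 66 listed cytokine receptor genes (18.2%) were tabled, near the 17.9% of all 17130 tested genes. Of these 12 genes 10 were lower and 2 higher, and edgeR called 8 lower and 2 higher. Beside the 4 receptor complex genes, these were Epor, Il10ra, Il17ra, Il17rb, Il21r, Ifnar1 and Ifngr1 on the lower side and Il7r on the higher side. Epor, the erythropoietin receptor, averaged 21.5 ± 4.33 in beta-glucan and 53.7 ± 14.7 in control libraries, and Ifngr1, a chain of the interferon gamma receptor, 2749.5 ± 173 and 3836 ± 687. Of 27 listed JAK, STAT and SOCS genes downstream, 6 (22.2%) were tabled, 5 lower and 1 higher, and edgeR called 2 lower (Jak3 and Tyk2). For Toll-like, Fc and immunoreceptor chains the count was 8 of 31 (25.8%), 7 lower and 1 higher, with 4 and 1 called by edgeR. All such lists leave out the genes named in the rule. Their counts are descriptions to be set beside the shares over all genes, and are not read as the response of a family.

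**Figure D3:**
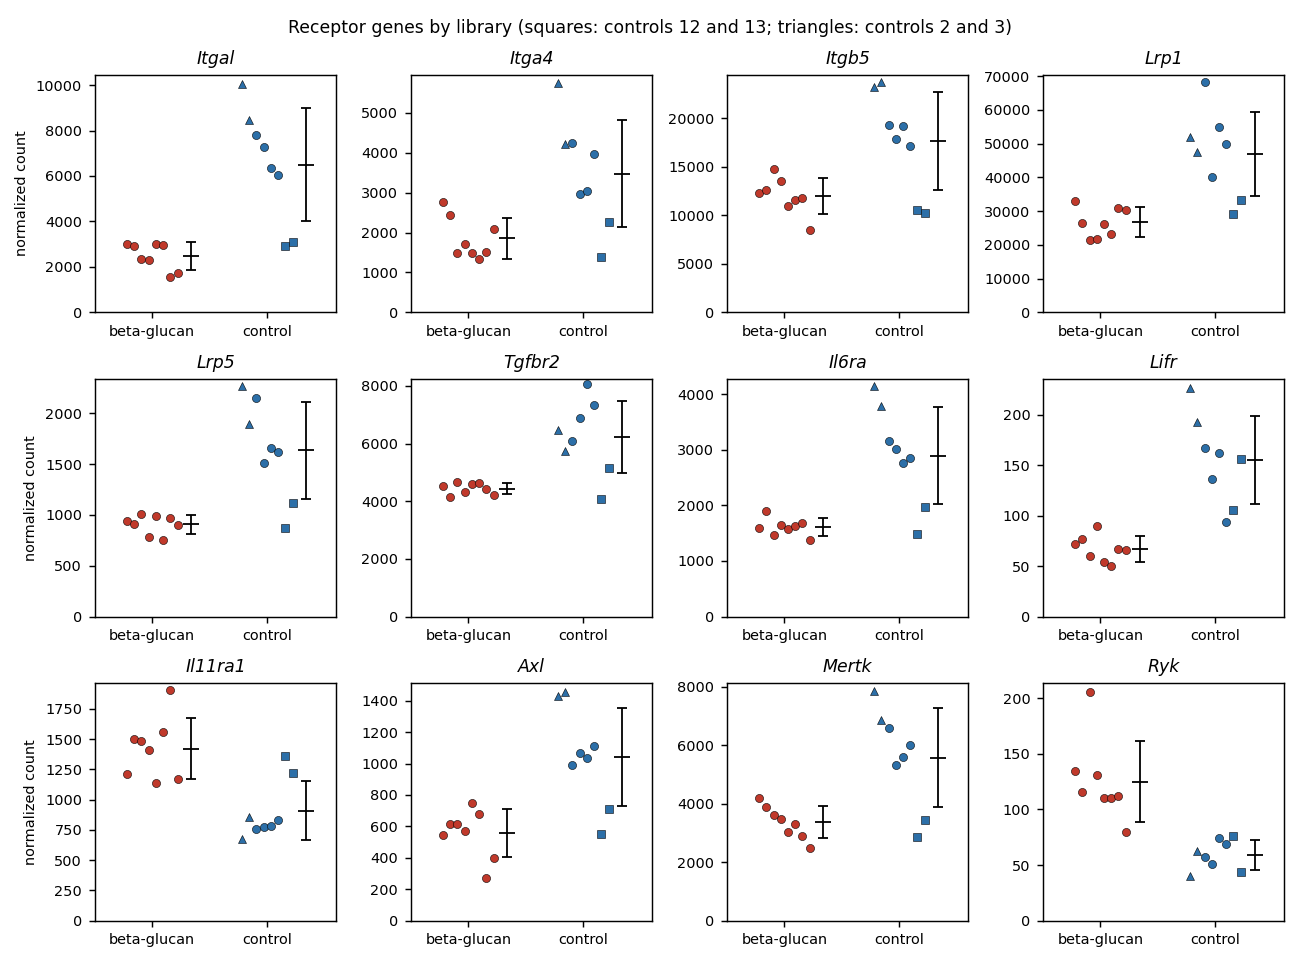
Normalized counts (y axis, from 0) of 12 receptor genes in 8 beta-glucan (red) and 8 control (blue) libraries, with mean ± SD beside the points; squares are controls 12 and 13 and triangles controls 2 and 3. For Itgal, Itga4, Itgb5, Lrp1, Lrp5, Il6ra, Il11ra1, Axl and Mertk at least 1 of controls 12 and 13 lies within the beta-glucan range, while Lifr and Ryk show no overlap.

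The 12 genes of growth factor receptors and their partners were 9 lower and 3 higher, and edgeR called 6 lower and 2 higher. Eps8, a substrate of the EGF receptor that binds actin (chr6:137477245-137654876, minus strand), had 29.5 to 75.7 (median 52.9) normalized counts in beta-glucan libraries, against 89.4 to 178 (median 127) in controls, with no overlap and a log2 fold change of -1.19 ± 0.19 (SE). Ryk, a Wnt-binding receptor of the tyrosine kinase family (chr9:102834917-102908305, plus strand), had 80.2 to 205 (median 114) in beta-glucan libraries, against 40.5 to 76.2 (median 60.1) in controls. All 8 beta-glucan libraries lay above all controls, with a log2 fold change of 1.07 ± 0.19 (SE). Gfra4, a co-receptor for ligands of the GDNF family, had 34.2 to 108 (median 71.6) in beta-glucan libraries, against 95.6 to 199 (median 155) in controls, a log2 fold change of -1.02 ± 0.21 (SE). Only the highest beta-glucan library, number 13, lay inside the control range.

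Axl and Mertk are receptors through which macrophages recognise dying cells bridged by Gas6 or protein S. Axl (chr7:25757273-25788705, minus strand) had 274 to 749 (median 592) normalized counts in beta-glucan libraries, against 552 to 1454 (median 1053) in controls, a log2 fold change of -0.91 ± 0.20 (SE). Controls 12 and 13, at 552 and 710, lay among the beta-glucan libraries. Beta-glucan 12 and 13, at 274 and 402, were the lowest of their group. Leaving out controls 2 and 3 ended the call of Axl (log2 fold change -0.71, edgeR adjusted p 0.0544). Mertk, also a macrophage marker, averaged 3366 ± 549 in beta-glucan and 5572 ± 1688 in control libraries, with controls 12 and 13 at 2877 and 3453. Met, the receptor for hepatocyte growth factor, was higher, at 128 ± 36.0 and 64.3 ± 28.0 in beta-glucan and control libraries, and controls 5 and 7, at 128 and 76.0, lay inside the beta-glucan range. Neither Mertk (log2 fold change -0.56, adjusted p 0.0689) nor Met (0.89, adjusted p 0.0620) was called by edgeR without controls 2 and 3.

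Flt1 and Kdr encode the VEGF receptors 1 and 2. Flt1 had 73.6 to 284 (median 183) normalized counts in beta-glucan libraries, against 134 to 571 (median 397) in controls, and controls 12 and 13 were the lowest controls at 134 and 152. Beta-glucan 12 and 13 were likewise the lowest of their group, at 73.6 and 88.8. Without controls 2 and 3 the adjusted p of Flt1 by edgeR was 0.135. Kdr had 69.7 to 155 (median 95.6) in beta-glucan libraries, against 30.1 to 87.4 (median 75.0) in controls, and edgeR did not call it. Kdr is also 1 of 4 endothelial markers and the only one tabled, and the part of other cells in its value was not tested. Flt1 was lower and Kdr higher on average, and their promoter windows are shown because related receptors differed in direction, a choice made after the values were seen. Each runs from 250 bases before to 50 bases after the gene start (RefSeq, GRCm38.p6, minus strand), with matches to 4 short motifs in capitals, on either strand. The motifs were the ETS core AGGAAG, the GC box GGGCGG, the TATA box TATAAA and the AP-1 site TGANTCA, and no matches overlapped.
Kdr, chr5:75978406-75978705: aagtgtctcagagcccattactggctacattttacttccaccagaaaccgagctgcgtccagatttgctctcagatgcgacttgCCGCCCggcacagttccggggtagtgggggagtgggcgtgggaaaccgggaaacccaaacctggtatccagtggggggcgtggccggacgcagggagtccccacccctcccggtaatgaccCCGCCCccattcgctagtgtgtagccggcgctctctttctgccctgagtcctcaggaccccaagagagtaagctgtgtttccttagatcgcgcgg
Flt1, chr5:147725962-147726261: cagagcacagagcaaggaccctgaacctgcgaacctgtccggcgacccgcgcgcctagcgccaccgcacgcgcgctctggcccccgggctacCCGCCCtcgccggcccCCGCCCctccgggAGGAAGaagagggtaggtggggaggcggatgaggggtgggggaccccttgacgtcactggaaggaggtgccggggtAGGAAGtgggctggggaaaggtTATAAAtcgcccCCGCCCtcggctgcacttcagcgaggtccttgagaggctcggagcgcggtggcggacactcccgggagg
The Kdr window held 19 CG pairs and 2 matches to GGGCGG. That of Flt1 held 29 CG pairs, 3 matches to GGGCGG, 2 to AGGAAG and 1 to TATAAA. Of all 32851 windows 35.7% held GGGCGG, 35.4% AGGAAG, 13.6% TATAAA and 7.81% TGANTCA, and the median was 7 CG pairs. For the receptor genes, 50 of 62 had at least 1 window, and of their 63 windows 66.7% held GGGCGG, 38.1% AGGAAG, 7.94% TATAAA and 6.35% TGANTCA. The shares over all windows are not limited to genes expressed in these cells. Shares over expressed or tabled genes were not computed, so the difference is not read as a trait of receptor genes. A match is a description of the letters and no evidence of binding.

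The remaining growth factor genes were all lower. Plxnb2, a semaphorin receptor, was the most abundant of this class, at 13218 ± 1088 in beta-glucan and 17160.4 ± 3379 in control libraries. Insr, the insulin receptor, averaged 638 ± 94.4 and 918 ± 292, and Ephb6, an Eph receptor without kinase activity, 92.4 ± 25.4 and 152 ± 53.8. Neither was called by edgeR, whereas without controls 12 and 13 both were called, with log2 fold changes of -0.72 and -0.91. In that fit 83.0% of the tabled genes past the filter were called, against 68.7% with all libraries, so these gained calls test no gene. Egf, the growth factor itself, was below the filter on low counts at 4.88 ± 4.38 and 13.7 ± 5.46. Of 65 listed receptor tyrosine kinases, plexins and co-receptors, 12 (18.5%, against 17.9% of all tested genes) were tabled, 9 lower and 3 higher. Only Igf2r and Ptk7 of these 12 are not receptor complex genes here, and both were lower.

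All 6 integrin genes were lower, and edgeR called 4 of them. Among all tabled genes past the filter 42.8% were called lower and 68.7% in either direction. Itgal, the alpha L chain that joins beta 2 to form LFA-1 on leukocytes (chr7:127296260-127335138, plus strand), had 1541 to 3029 (median 2629.9) normalized counts in beta-glucan libraries, against 2911 to 10039 (median 6819) in controls. The mean fell to 38.1% of control, a log2 fold change of -1.39 ± 0.23 (SE). Control 12, at 2911, lay inside the beta-glucan range and control 13, at 3089, just above it, and the other 6 controls were at 6028 or above. Beta-glucan 12 and 13 were also the lowest of their group, at 1541 and 1719. Without controls 12 and 13 the log2 fold change of Itgal was -1.63. Its partner Itgb2, the beta 2 chain (chr10:77530252-77565708, plus strand), averaged 15596 ± 2541 in beta-glucan and 19308 ± 1969 in control libraries, a log2 fold change of -0.31 ± 0.10 (SE) that edgeR did not call.

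Itga4, the alpha 4 chain that binds VCAM-1 and fibronectin (chr2:79255426-79333123, plus strand), had 1346 to 2756 (median 1619) normalized counts in beta-glucan libraries, against 1397 to 5743 (median 3499.7) in controls, a log2 fold change of -0.90 ± 0.23 (SE). Control 12, at 1397, lay among the lowest beta-glucan libraries, and control 13 at 2263. Without controls 2 and 3 the log2 fold change of Itga4 was -0.68, and edgeR did not call it (adjusted p 0.0869). Itgb5, the beta 5 chain of a vitronectin receptor (chr16:33829665-33949338, plus strand), had 8494 to 14749 (median 12023) in beta-glucan libraries, against 10191 to 23740.0 (median 18528) in controls, a log2 fold change of -0.56 ± 0.16 (SE). Without controls 2 and 3 its adjusted p by edgeR was 0.189 with a log2 fold change of -0.39, and without controls 12 and 13 it was 0.000147 with -0.75. Among the 16 fits that left out 1 library, 7 kept the call.

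The other integrin genes had few reads. Itga8, the alpha 8 chain, had 13 to 61.0 (median 39.3) in beta-glucan libraries, against 26.8 to 136 (median 86.5) in controls, and edgeR did not call it. Itga10, the alpha 10 chain of a collagen receptor, had 1.02 to 11.1 (median 6.50) in beta-glucan libraries, against 8.73 to 31.2 (median 21.7) in controls, a log2 fold change of -1.53 ± 0.40 (SE). Its call was lost without controls 2 and 3 (log2 fold change -1.47, edgeR adjusted p 0.0771). In the GENCODE M21 annotation 33.5% of the Itga10 exons overlap another gene, Gm42957, on the same strand, so its reads may be shared. Of 24 listed integrin genes 7 (29.2%, against 17.9% of all tested genes) were tabled, all lower, the seventh being Itgam. The list leaves out the integrin genes named in the rule, so this count does not cover the whole family. Of 34 listed adaptors and ligands 6 (17.6%, against the same 17.9%) were tabled, all lower. Of these 6 edgeR called 4: Parvg, Tns1, Fn1 and Lamc1. F13a1, the 1 tabled marker of 5 for monocytes, moved with the integrins, at 9.90 to 39.5 in beta-glucan and 61.5 to 520.4 in control libraries; its part in these results was not tested.

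The 3 TGF-beta superfamily receptor genes, all type II kinases, were lower, as were 64.9% of all tabled genes. Tgfbr2, the type II receptor for TGF-beta (chr9:116084293-116175360, minus strand), had 4150.2 to 4663 (median 4484) normalized counts in beta-glucan libraries, against 4082 to 8048 (median 6282) in controls. The log2 fold change was -0.49 ± 0.11 (SE), and only control 12, at 4082, lay below the beta-glucan libraries while control 13, at 5161, lay above them. The beta-glucan libraries were close together for this gene, with a coefficient of variation of 4.44%, against 20.2% in controls. With TMM scaling edgeR did not call Tgfbr2 (adjusted p 0.192). The same scaling ended the calls of other genes too, among them Tlr7 (0.103), Il4ra (0.322), Itgb5 (0.384), Hfe (0.0576) and Dlg4 (0.107). As said above, such losses are no test of a gene.

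Acvr2b, an activin receptor (chr9:119402118-119434995, plus strand), had 13 to 34.7 (median 26.5) in beta-glucan libraries, against 25.4 to 61.4 (median 54.3) in controls, a log2 fold change of -1.06 ± 0.26 (SE). Leaving out controls 2 and 3 gave -0.95 for Acvr2b, with an edgeR adjusted p of 0.0736. Acvr2a, the related activin receptor (chr2:48814109-48903269, plus strand), had 68.9 to 116 (median 97.0) in beta-glucan libraries, against 110.4 to 153 (median 119) in controls, a log2 fold change of -0.39 ± 0.14 (SE) that edgeR did not call. Of 20 listed receptors and co-receptors of this family 4 (20%, against 17.9% of all tested genes) were tabled, all lower. The fourth was Tgfbr3l, at 7.81 ± 7.37 and 32.6 ± 22.2 in beta-glucan and control libraries. Of 39 listed ligands, Smads and regulators 2 (5.13%) were tabled, Smad7 and Ski, both inhibitors of TGF-beta signalling and both lower. Smad7 averaged 283 ± 59.0 in beta-glucan and 448 ± 136 in control libraries.

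All 3 lipoprotein receptor genes were lower, and edgeR called Lrp1 and Lrp5, against 42.8% of all tabled genes past the filter called lower. Lrp1, a large endocytic receptor for apolipoprotein E and other ligands (chr10:127538161-127621148, minus strand), had 21509.8 to 33063 (median 26380.0) normalized counts in beta-glucan libraries, against 29226 to 68175 (median 48774) in controls. The log2 fold change was -0.81 ± 0.15 (SE), and control 12, at 29226, was the only control inside the beta-glucan range. Lrp5, a Wnt co-receptor (chr19:3584828-3686564, minus strand), had 751 to 1013 (median 927) in beta-glucan libraries, against 870.3 to 2265 (median 1638) in controls, a log2 fold change of -0.85 ± 0.16 (SE). Here too control 12, at 870.3, was the only control inside the beta-glucan range. Vldlr, which binds VLDL and reelin (chr19:27216484-27254231, plus strand), had 19.3 to 47.3 (median 34.8) in beta-glucan libraries, against 12.7 to 64.3 (median 57.6) in controls, and edgeR did not call it. Control 12, at 12.7, was below every beta-glucan library, and the other 7 controls, at 51.9 or above, were all higher than every beta-glucan library.

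In the wider LDL receptor family and its adaptors 11 of 29 listed genes (37.9%, against 17.9% of all tested genes) were tabled. Of these 11 genes 8 were lower and 3 higher, and edgeR called 6 lower and 3 higher. Lrp6, the other Wnt co-receptor of the family, averaged 2767 ± 638 in beta-glucan and 5311 ± 1993 in control libraries. Sorl1 and Sort1, which sort cargo between the Golgi and endosomes, were lower as well, with log2 fold changes of -0.92 and -0.66. Lrp11 and Lrp12 were higher, with log2 fold changes of 0.49 and 0.36.

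The largest class, 28 genes of channels, transmitter receptors and other receptor partners, was 21 lower and 7 higher, and edgeR called 15 lower and 5 higher. Hspd1, a mitochondrial chaperonin that the ontology also lists at receptor complexes (chr1:55077835-55088243, minus strand), had 4324 to 5757 (median 5122) normalized counts in beta-glucan libraries, against 2939 to 4085 (median 3499.8) in controls, with no overlap and a log2 fold change of 0.54 ± 0.09 (SE). Pkd1l3, a polycystin channel subunit (chr8:109614517-109674386, plus strand), had 8.41 to 20.3 (median 12.9) in beta-glucan libraries, against 23.4 to 97.5 (median 37.5) in controls, with no overlap and a log2 fold change of -1.89 ± 0.35 (SE). Gprc5b, an orphan G protein-coupled receptor, had 40.0 to 117 (median 70.2) in beta-glucan libraries, against 5.79 to 62.3 (median 17) in controls, a log2 fold change of 1.53 ± 0.39 (SE). Its groups overlapped through controls 5 and 13, at 62.3 and 48.4. Without controls 2 and 3 the log2 fold change of Gprc5b was 1.27, which edgeR did not call (adjusted p 0.0621).

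Notch1, a receptor cleaved after it meets a ligand on a neighbouring cell (chr2:26457903-26516663, minus strand), had 338 to 506 (median 394) in beta-glucan libraries, against 296 to 1498 (median 865) in controls, a log2 fold change of -1.17 ± 0.23 (SE). Control 12, at 296, was below all beta-glucan libraries. Notch2 averaged 2466 ± 412 in beta-glucan and 3557 ± 1187 in control libraries and was not called by edgeR. App, the amyloid precursor protein (chr16:84949685-85173766, minus strand), had 13493 to 17959 (median 15293) in beta-glucan libraries, against 16115 to 30357 (median 24271) in controls, a log2 fold change of -0.64 ± 0.12 (SE), and only control 12, at 16115, lay inside the beta-glucan range.

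Tfrc, Hfe and Trf take part in the uptake of iron. Tfrc, the transferrin receptor, averaged 5679 ± 819 in beta-glucan and 4639 ± 582 in control libraries, and edgeR did not call it (adjusted p 0.0717). Hfe, a partner that limits transferrin binding to that receptor (chr13:23702034-23710854, minus strand), had 1295 to 1592 (median 1317) in beta-glucan libraries, against 1696 to 2718 (median 1803) in controls, with no overlap and a log2 fold change of -0.57 ± 0.11 (SE). Trf, transferrin itself, had 231 to 394 (median 309) and 358 to 1073 (median 535) in beta-glucan and control libraries, and controls 12 and 13 were the highest controls for it, at 1073 and 745. The other controls were at 568 or below, and the log2 fold change was -0.92 ± 0.19 (SE) with controls 12 and 13 and -0.63 without them. Exons of Trf overlap those of Gm20425 over 63.5% of their length on the same strand.

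Calcrl and Ramp1 form the receptor for CGRP, a neuropeptide, and moved in opposite directions. Calcrl, the 7-transmembrane receptor, had 844 to 1671 (median 1248) normalized counts in beta-glucan libraries, against 556 to 1324 (median 785) in controls, a log2 fold change of 0.61 ± 0.18 (SE). Without controls 2 and 3 it was 0.46, which edgeR did not call (adjusted p 0.147). Ramp1, its membrane partner, had 40.5 to 69.7 (median 48.5) in beta-glucan libraries, against 62.5 to 211 (median 105) in controls, a log2 fold change of -1.08 ± 0.22 (SE). Their promoter windows are shown in the same way as those of the VEGF receptors.
Calcrl, chr2:84425217-84425516, minus strand: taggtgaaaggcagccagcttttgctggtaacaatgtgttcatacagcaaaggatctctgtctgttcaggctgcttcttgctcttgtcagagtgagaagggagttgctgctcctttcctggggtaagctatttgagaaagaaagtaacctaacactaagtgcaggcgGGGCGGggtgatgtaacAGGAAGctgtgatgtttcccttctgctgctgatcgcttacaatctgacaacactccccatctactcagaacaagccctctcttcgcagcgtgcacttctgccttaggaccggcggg
Ramp1, chr1:91179572-91179871, plus strand: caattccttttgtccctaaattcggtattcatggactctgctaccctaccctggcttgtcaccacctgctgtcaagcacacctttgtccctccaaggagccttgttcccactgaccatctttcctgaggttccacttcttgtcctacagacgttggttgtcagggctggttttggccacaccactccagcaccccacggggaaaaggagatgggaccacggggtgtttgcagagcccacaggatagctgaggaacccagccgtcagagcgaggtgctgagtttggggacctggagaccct
Calcrl had 7 CG pairs, 1 match to GGGCGG and 1 to AGGAAG. Ramp1 had 6 CG pairs and no match to any of the 4 motifs.

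Several subunits best known from neurons or muscle had low counts. Grik5, a kainate receptor subunit, had 2.04 to 39.1 (median 7.4) in beta-glucan libraries, against 20.6 to 98.4 (median 40.7) in controls, with 1 beta-glucan library, number 13, at 39.1 and the other 7 at 10.1 or below. Its log2 fold change was -2.11 ± 0.49 (SE), and -1.85 without controls 2 and 3, which edgeR did not call (adjusted p 0.0526). The nicotinic subunits Chrnb1 and Chrnb2 averaged 8.27 ± 4.21 and 26.2 ± 9.08 in beta-glucan libraries, against 20.8 ± 7.15 and 47.0 ± 9.08 in controls. Grin2c, an NMDA receptor subunit, and Cnih2, an auxiliary subunit of AMPA receptors, were lower but below the filter on low counts, and for Grin2c 6 of 8 beta-glucan and 3 of 8 control libraries had no read. Npr1, a natriuretic peptide receptor, was higher and also below that filter, at 5.09 ± 2.54 in beta-glucan and 1.09 ± 1.21 in control libraries. Without the filter edgeR called Grin2c (adjusted p 0.0273) and Npr1 (0.0376). Dlg4, a synaptic scaffold, had more reads than these, with 282 ± 65.7 in beta-glucan and 437 ± 70.5 in control libraries.

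Ahr and Rxra, both transcription factors that bind a ligand, were also lower. Ahr, which senses aromatic ligands, had 26.4 to 62.3 (median 36.9) in beta-glucan libraries, against 32.2 to 233 (median 69.1) in controls, and controls 2 and 3, at 233 and 170, were the 2 highest. Without them the log2 fold change was -0.57, against -1.21 ± 0.35 (SE) with them, and edgeR no longer called it (adjusted p 0.328). Rxra, a partner of many nuclear receptors, averaged 3733 ± 463 and 4935 ± 1279 and was not called. Itpr3, a calcium release channel, Kctd12, an auxiliary subunit of GABA-B receptors, Caprin2, an RNA-binding protein, Gpr160, an orphan receptor, and Rffl, a ubiquitin ligase, were lower, with log2 fold changes from -0.60 to -0.39, while Alcam, an adhesion molecule, and Sdcbp, the scaffold syntenin, were higher by 0.46 and 0.31. Exons of Kctd12 (64.2%) and Rffl (30.8%) overlap other genes mainly on the opposite strand, and the strand setting of the counting is not given in the sources used here.

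Within a library, the ratio of 2 receptor genes does not depend on the scaling of that library. The pairs were chosen after the values were seen, so the ratios describe these libraries and carry no test. Of 10 ratios computed 3 separated the groups. On the FPKM scale the ratio of Calcrl to Ramp1 was 15.5 ± 4.34 in beta-glucan and 5.44 ± 2.80 in control libraries (SD, n = 8 each), and every beta-glucan library, at 10.4 to 23.6, lay above every control, at 1.63 to 9.98. Il11ra1 to Lifr was 52.7 ± 13.6 and 15.7 ± 7.74, again without overlap, at 37.8 to 75.3 and 7.21 to 31.1. Met to Axl was 0.154 ± 0.0299 and 0.0436 ± 0.0209, likewise without overlap.

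The ratio of Kdr to Flt1 averaged 0.926 ± 0.311 in beta-glucan and 0.369 ± 0.268 in control libraries. Controls 12 and 13 stood at 0.873 and 0.705, inside the beta-glucan range of 0.544 to 1.45, and the other 6 controls at 0.289 or below. Beta-glucan 12 and 13 were at 1.45 and 1.17. For Itgal to Itgb2 the values were 0.0767 ± 0.0247 and 0.156 ± 0.0552, with controls 12 and 13 at 0.0725 and 0.0709 among the beta-glucan libraries. Beta-glucan 12 and 13 were lower still, at 0.0407 and 0.0391. The other 6 controls had ratios of 0.164 or above. Tfrc to Hfe was 2.41 ± 0.354 and 1.38 ± 0.385, and 1 control, number 5, at 1.96, lay inside the beta-glucan range.

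The ratios of the other 4 pairs overlapped as well. Il11ra1 to Il6ra was 1.71 ± 0.267 in beta-glucan and 0.725 ± 0.499 in control libraries, with control 12, at 1.77, inside the beta-glucan range. Tfrc to Trf was 10.0 ± 1.85 and 4.82 ± 1.97, with an overlap through control 5 at 8.60. Cd14 to Tlr1 was 43.9 ± 13.7 and 19.0 ± 4.75, and controls 3 and 12, at 22.5 and 28.6, lay above the lowest beta-glucan library. Acvr2a to Acvr2b was 3.07 ± 1.05 and 1.86 ± 0.520, and controls 7, 12 and 13 lay inside the beta-glucan range.

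**Figure D4:**
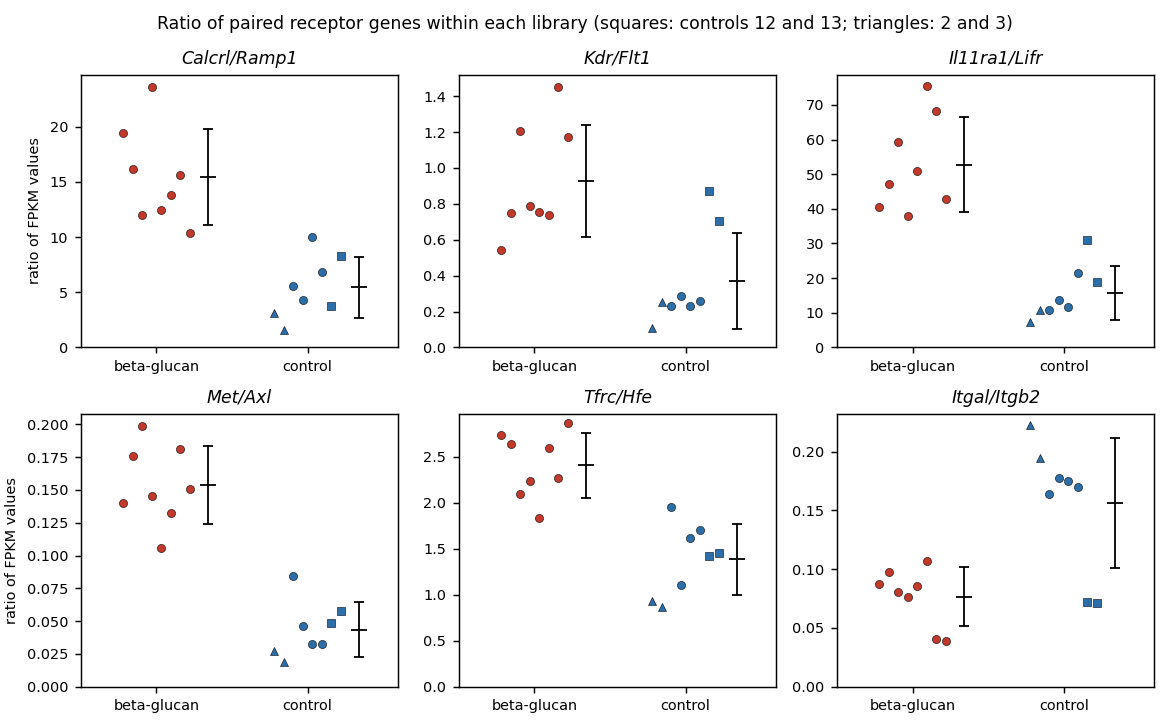
Ratio of FPKM values of 2 genes within each library (y axis, from 0) for 6 of the 10 pairs, in 8 beta-glucan (red) and 8 control (blue) libraries with mean ± SD; squares are controls 12 and 13 and triangles controls 2 and 3. The groups do not overlap for Calcrl/Ramp1, Il11ra1/Lifr and Met/Axl, and controls 12 and 13 lie at the level of the beta-glucan libraries for Kdr/Flt1 and Itgal/Itgb2. Beta-glucan 12 and 13 lie above controls 12 and 13 for Kdr/Flt1 and below them for Itgal/Itgb2.

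Levels per length, in FPKM, spanned a wide range. Both group means were at least 1 FPKM for 37 of the 62 genes and under 1 FPKM for 20, and 8 genes had a group mean of at least 100 FPKM. Itgb2 was the most abundant, at 285 ± 46.4 FPKM in beta-glucan and 353 ± 36.0 FPKM in control libraries. Next in control libraries came Itgb5 at 277 ± 79.8 FPKM, with 188 ± 29.1 in beta-glucan libraries. Cd14 stood at 278 ± 35.5 and 194 ± 54.5 FPKM in beta-glucan and control libraries, so in beta-glucan libraries its mean lay above that of Itgb5, while the spreads of Cd14 and Itgb2 there overlapped. Of the 2 receptors for dying cells Mertk was the more abundant in both groups, at 43.3 ± 7.05 FPKM beside 6.16 ± 1.69 FPKM for Axl in beta-glucan libraries, and 71.6 ± 21.7 FPKM beside 11.6 ± 3.45 FPKM in controls.

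**Figure D5:**
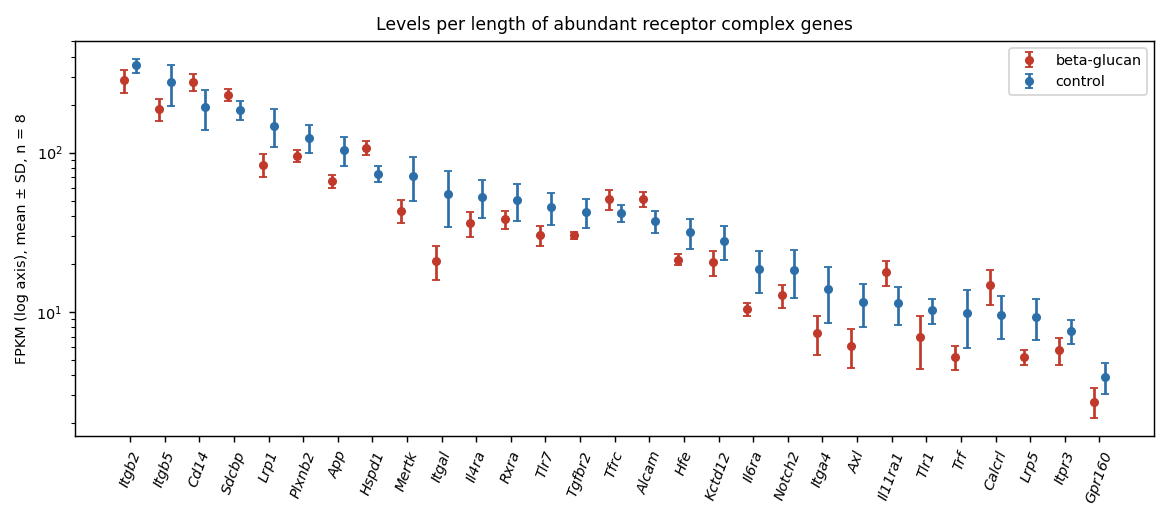
Mean FPKM ± SD (log y axis, n = 8 libraries per group) of 29 abundant receptor complex genes (x axis, in the order of the control mean), beta-glucan left in red and control right in blue. Itgb2, Itgb5, Cd14 and Sdcbp are at the high end, and Cd14, Sdcbp, Hspd1, Tfrc, Alcam, Il11ra1 and Calcrl have higher means after beta-glucan.

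Spread also differed between the groups. Over the 49 receptor genes with a mean normalized count of at least 50, the median coefficient of variation was 18.0% in beta-glucan and 26.7% in control libraries, and 37 genes varied more in controls. Among 2378 tabled genes with such a mean 71.2% varied more in controls. Without controls 12 and 13 the control median was 18.7% and 22 of the 49 genes varied more in controls. For the 2378 tabled genes that median was 15.4%, and 1228 of them varied more in controls. Without controls 2 and 3 the counts were 31 of the 49 and 1632 of the 2378 genes. Genes near the authors' threshold of 0.05 were Rxra, Fcrl5, Rffl and Vldlr, with adjusted p of 0.0477, 0.0471, 0.0470 and 0.0454 in the authors' deposited table. Genes just outside it are not analysed here.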

How the data were processed

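RNA sequencing of 8 beta-glucan and 8 control libraries was compared, grouped by the treatment in the labels. The submitters' processing notes name mm10 as the build and STAR 2.5, HTSeq 0.6.1, CASAVA and DESeq2 as tools. For the annotation release and strand setting the sources used here give no statement. Each deposited read count is a whole number for 1 gene and library. The deposited normalized counts, used here as signal, are those counts divided by 1 size factor per library (0.864 to 1.16), and the deposited FPKM values are the same per kilobase, scaled to 17937135 reads. The authors' log2 fold changes, p-values and adjusted p-values were taken from the deposited comparison, which lists the 3071 genes of 17130 with an adjusted p under 0.05. The enrichment row gives gene counts by the authors.

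On the counts the quasi-likelihood test of edgeR 4.0.16 (R 4.3.3; glmQLFit, glmQLFTest, two-sided, filterByExpr with a minimum count of 10) was run, with library sizes set to the deposited size factors times 17937135, and p was adjusted by Benjamini-Hochberg over 17130 genes. Since only genes that had passed were tabled, spread and p are optimistic and serve as description. Members and gene lists were chosen with earlier results of these data known. Within groups, 56 pairs of libraries differed by 11.3 to 208 times the counting noise (chi-square per degree of freedom), so each counted once. The text gives library values for the 4 members of each class with the smallest adjusted p in the authors' deposited table and the 2 with the largest change among those with a mean of at least 50. Other members were named after their values were seen. Classes, gene pairs and promoters were also chosen then. Overlaps came from GENCODE M21, in which 59 of the 62 genes had the same start and end. Alternatives were TMM (edgeR) and DESeq2 1.42.0 size factors, no filter, the DESeq2 test, the library number as a block, and leaving out libraries. Simulated counts with known fold changes were used to check the edgeR step. Figures were drawn in Python 3.11.15 with matplotlib 3.10.9. Values of 1 member and of 1 listed gene are not reported here, and counts and medians include them.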

Additional observations from a re-analysis of the deposited data

Results flagged for a closer look

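Of 124 groups of 8 libraries (62 genes in each treatment) 10 held a library far from the others by Dixon's criterion, where chance flags about 1 group in 20. In beta-glucan libraries Ryk stood out at 205 normalized counts in library 7, against 135 in the next highest, and Cd79b, Grik5 and Rxra stood out in library 13. There Cd79b had 29.6 normalized counts against 15.7 in the next highest, Grik5 had 39.1 against 10.1, and Rxra had 2729.8 against 3665 in the next lowest. In control libraries Tlr1 stood out in library 13 at 857 normalized counts, against 653 in the next highest. Met had 128 normalized counts in control 5, against 76.0, and Sdcbp 16061 in the same library, against 21763 in the next lowest. Kdr had 30.1 in control 2, against 66.0, and Ramp1 had 211 in control 3, against 122. Vldlr had 12.7 in control 12, against 51.9 in the next lowest.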

How the results depend on the processing

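No receptor complex gene that could be fitted changed its direction in any of 24 alternatives. The choice of the genes by adjusted p in these same libraries made this likely, so it adds no support. The 10 higher and 34 lower calls became 12 and 17 with TMM factors and 12 and 19 with DESeq2 size factors from the tabled genes (median log2 fold change of all genes moved by 0.22 and 0.20). Of all tabled genes 38.8% were then called higher and 15.7% lower, and 38.6% and 18.6%, against 25.9% and 42.8% with the deposited size factors. Both scalings take most genes as unchanged, which genes chosen by the authors' adjusted p do not meet, so these counts test no gene. There were 4 higher and 15 lower calls without controls 2 and 3 (6.70% and 16.2% of all tabled genes) and 10 and 40 without controls 12 and 13 (31.3% and 51.7%). Without the filter there were 11 and 37 (24.4% and 47.7%), and with DESeq2 12 and 45 (34.4% and 61.4%). Leaving out 1 library at a time gave 6 to 10 higher and 22 to 41 lower calls (13.9% to 31.7% and 28.0% to 51.1% of all tabled genes), with the fewest without beta-glucan 7 and control 2. With the library number as a replicate block over the 12 libraries whose number occurs in both groups there were 2 higher and 10 lower calls (4.05% and 8.90%). In the same 12 libraries without that term, an alternative added after seeing the data, edgeR made 0 higher and 1 lower calls, although 45 of 57 genes had an unadjusted p under 0.05. With the number term 355 tabled genes were called in these 12 libraries, and 68 without it. Deviations of same-numbered libraries from their group means had correlations of -0.15 to 0.36. Among the 6 controls with a shared number, the closest to beta-glucan 5 was number 5, and those to beta-glucan 12 and 13 were numbers 13 and 12. Numbers 7, 9 and 10 did not match their own number. No label states a pairing, so the main fit holds no number term, and shared structure by number was not tested further. Of all tabled genes 1882 were called, against 68 to 2942 over the alternatives. The causes of these shifts were not tested. Depth limits Fcrl5, Egf, Grin2c, Cnih2 and Npr1, which the filter on low counts removed.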

Other observations

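Of 43 listed growth factors that act on the receptor families above 12 (27.9%, against 17.9% of all tested genes) were tabled. Of these 12 genes 9 were lower and 3 higher, and edgeR called 6 lower and 2 higher. Gas6 and Pros1, which bridge dying cells to Axl and Mertk, were lower on average. Gas6 averaged 28559 ± 1898 in beta-glucan and 33826 ± 4177 in control libraries, which edgeR did not call, and Pros1, protein S, 954 ± 143 and 1429 ± 259 (SD, n = 8 each). Vegfa, the ligand of Flt1 and Kdr, averaged 689 ± 143 in beta-glucan and 1168 ± 424 in control libraries. Fgf1 and Fgf2 were lower at few reads, with 5.93 ± 4.05 and 7.72 ± 5.61 in beta-glucan and 24.2 ± 10.7 and 26.3 ± 9.60 in control libraries. Pdgfa and Sema4d were higher, with log2 fold changes of 0.54 and 0.33. These genes were taken from the same comparison as the receptors, and the values describe it without adding a test.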
